A study of Arabidopsis thaliana with 27 samples.

Results

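Plants growing on saline medium meet both an osmotic load, which any solute imposes, and the ions themselves. To look for effects of the ions, Arabidopsis seedlings grown on 75 mM NaCl were set against seedlings grown on 150 mM sorbitol. Sorbitol is a sugar alcohol, supplied here at an equal osmotic load without added salt. The comparison used 6 of the 27 single-colour Agilent arrays of the series, namely the 3 titled 75 mM NaCl and the 3 titled 150 mM sorbitol, and all genes that could be measured on them. Each array held total RNA from whole Col-0 wild-type seedlings, shoot and root together, grown for 2 weeks from sowing on Arabidopsis thaliana salts (ATS) medium with NaCl at 75 mM or with sorbitol at 150 mM, and 3 arrays of seedlings on ATS medium with neither served as the control. A value therefore averages over all tissues, and after growth from seed on the treated medium it belongs to seedlings that had lived with the treatment throughout. The study's figure legends call the repeats of the array experiment biological, but neither they nor the labels say whether the repeats were separate dishes or separate sowings. The p-values rest on the spread between replicate arrays, pooled over all 27 arrays of the 9 groups.

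Some background helps in reading the genes below. Water deficit raises abscisic acid, which drives a well-known set of dehydration genes (late embryogenesis abundant proteins, dehydrins, protein phosphatases of clade A) in Arabidopsis. Sodium that enters a plant is pumped out of cells by SOS1, moved into the vacuole by NHX exchangers and taken back from the xylem by HKT1, while potassium enters through AKT1 and HAK5. Iron is taken up by roots through the reductase FRO2 and the transporter IRT1 under the regulator FIT, and a small group of basic helix-loop-helix genes (BHLH38, BHLH39, BHLH100 and BHLH101) is switched on when iron is short, while ferritins, which store iron, are switched on when it is plentiful.

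Of 21509 genes tested with limma, 10312 (47.9%) differed between NaCl 75 mM and sorbitol 150 mM at a Benjamini-Hochberg adjusted p under 0.01. The calls were split almost evenly, with 5178 genes (24.1%) higher on NaCl and 5134 (23.9%) lower. Most of these differences were small, and 423 genes (1.97%) were at least 2-fold higher on NaCl and 589 (2.74%) at least 2-fold lower. These counts depended on the treatment of dim spots, being 131 and 228 with normexp background correction, and 6353 genes were called when only the 6 arrays were fitted. Throughout, signals are quantile-normalized spot intensities on a linear scale, differences are log2 NaCl 75 mM minus sorbitol 150 mM with the standard error of the fit, and a gene called higher or lower is past an adjusted p of 0.01. The 3 NaCl arrays lay wholly above or wholly below the 3 sorbitol arrays for 12879 of 21494 genes with complete values (59.9%), and for 422 of the 423 and 586 of the 589 genes at least 2-fold apart. For 24 of the 423 no sorbitol array, and for 89 of the 589 no NaCl array, was well above background.

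Each treatment was also set against the control, which places each group beside untreated seedlings. Control replicate 1 was hybridised on the same slide as NaCl 75 mM replicate 1, and the other replicates of these groups on different slides. No slide held both control and sorbitol 150 mM, so slide and treatment cannot be told apart in that comparison. On NaCl 75 mM 9540 genes (44.4%) differed from control and on sorbitol 150 mM 10737 (49.9%), the same 3 control arrays serving both comparisons. Among the 423 genes at least 2-fold higher on NaCl, 179 were above and 69 below control on NaCl, while 22 were above and 341 below control on sorbitol. Over all genes, 24.2% were above and 20.2% below control on NaCl, and 27.1% above and 22.9% below on sorbitol. Among the 589 genes at least 2-fold lower on NaCl, 120 were above and 305 below control on NaCl, while 464 were above and 38 below control on sorbitol.

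**Figure D1:**
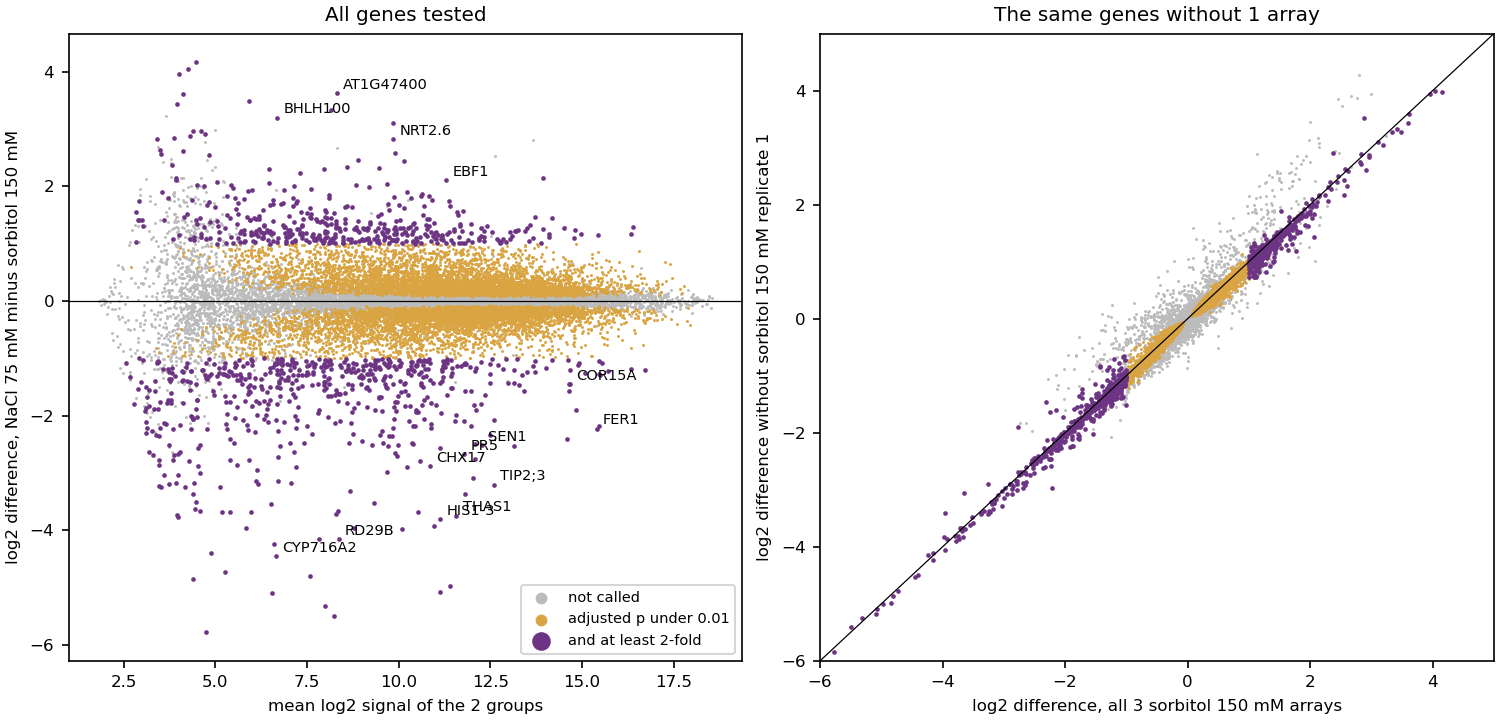
Left, log2 difference NaCl 75 mM minus sorbitol 150 mM against the mean log2 signal of the 2 groups, 1 point per gene (21509 genes; grey, not called; yellow, adjusted p under 0.01; purple, also at least 2-fold). Right, the difference with all 3 sorbitol 150 mM arrays on the x axis and without replicate 1 on the y axis, with the line of equality. The purple points stay near the line, whereas a cloud of grey points lies above it.

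Before the gene groups, the replicate arrays were compared. The spread between replicates was smaller on NaCl, where the median gene had an SD of 2.66% of its signal, than on sorbitol, where it was 5.86%. Sorbitol replicate 1 lay furthest from its group: 613 genes differed at least 2-fold between it and the mean of replicates 2 and 3, against 241 for the same split on NaCl. That array was hybridised on another slide than sorbitol replicates 2 and 3, its deviations correlated over genes with those of the other arrays on its slide, at 0.50 for sorbitol 200 mM, 0.24 for sorbitol 100 mM and 0.17 for NaCl 125 mM replicate 1, and no slide held both NaCl 75 mM and sorbitol 150 mM, so slide and treatment cannot be told apart. Shoot markers, which are photosynthesis genes, had summed signals of 5184199 to 5205093 on NaCl and 5179005 to 5371541 on sorbitol, with 1 of 22 higher, 3 lower and a median difference of 0.01. Root markers (Casparian strip, endodermis and root hair genes) summed to 176778 to 180880 on NaCl, 221146 to 227424 on sorbitol and 207482 to 211638 in control, with 1 of 19 higher (SCR), 12 lower and a median of -0.50. In bulk RNA, fewer cells of a type and less RNA per cell cannot be told apart. Seed markers summed to 665 to 709 on NaCl, 560 to 736 on sorbitol and 479 to 505 in control, with 1 of 14 higher, 6 lower, a median of -0.55 and 5 and 3 of them not well above background on any NaCl and sorbitol array.

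The dehydration genes were lower on NaCl than on sorbitol at equal osmotic load. Of 23 genes of the abscisic acid and dehydration list, 19 were lower on NaCl and 0 higher, 6 of them at least 2-fold, with a median difference of -0.66 against 0.0049 over all genes tested. Counts of this and the other lists stand beside 24.1% of all genes called higher and 23.9% called lower. The list was nevertheless above control under both treatments, with a median of 0.80 on NaCl (17 of 23 called above) and 1.33 on sorbitol (21 of 23 called above). Seed markers, some of them also genes that abscisic acid induces, had a median of -0.55 between the treatments, and their part in this difference was not tested. RD29B, a protein of dehydrated cells that abscisic acid induces, had signals of 67.1, 82.0 and 86.2 on the 3 NaCl arrays, against 1485, 1308 and 1382 on sorbitol and 18.1, 21.3 and 21.2 in control. All 3 groups were separate, with NaCl far nearer to control, whose arrays did not put it well above background, than to sorbitol, and RD29B was far lower on NaCl than on sorbitol (-4.16 ± 0.09, adjusted p = 5.8e-19). TSPO, a membrane protein that abscisic acid and salt induce, had 194, 187 and 186 on NaCl, 2318, 2174 and 2050 on sorbitol and 38.8, 36.0 and 44.6 in control, again with NaCl between the others (-3.53 ± 0.06, adjusted p = 2.2e-21). HAI1, a clade A phosphatase of abscisic acid signalling, had 644, 689 and 649 on NaCl, 2785, 2972 and 3193 on sorbitol and 139, 146 and 181 in control (-2.17 ± 0.09, adjusted p = 1.3e-14). For these genes the sorbitol arrays were the highest and the control arrays the lowest, without overlap.

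The abundant cold and dehydration proteins differed less. COR15A, which protects chloroplast membranes, had 15703, 15868 and 15737 on NaCl, 49025, 41888 and 39001 on sorbitol and 1356, 1379 and 1360 in control (-1.45 ± 0.07), and RD29A had 21676, 20633 and 21560 on NaCl, 42902, 48073 and 44175 on sorbitol and 7969, 7938 and 8040 in control (-1.08 ± 0.05). RD20, a calcium-binding lipid droplet protein, was the other list member past 2-fold (-1.07). ERD10 (-0.01), RAB18 (-0.35, adjusted p = 0.064) and HAI2 (-0.90) were not called. The 4 probes of RAB18 ranged from -2.26 to -0.35, and the brightest, which stood for the gene, gave the smallest difference. KIN1, a list member called lower, was -0.34 by its brighter probe but 2.27 by the other, so its direction is uncertain. NCED3, which makes the rate-limiting enzyme of abscisic acid synthesis, was dim and scattered, at 34.1, 41.2 and 30.6 on NaCl, 40.6, 20.1 and 46.0 on sorbitol and 75.7, 21.0 and 43.9 in control, and was not called (0.07 ± 0.76). HIS1-3, a linker histone induced by drought that is outside the list, followed RD29B in size, with 591, 610 and 603 on NaCl, 8406, 7996 and 8826 on sorbitol and 413, 410 and 419 in control, so that NaCl lay just above control and sorbitol 14.0-fold above NaCl (-3.80 ± 0.03, adjusted p = 7.6e-26). With normexp background correction RD29B was -2.62, and without sorbitol replicate 1 the list had 17 lower and 0 higher with a median of -0.67.

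**Figure D2:**
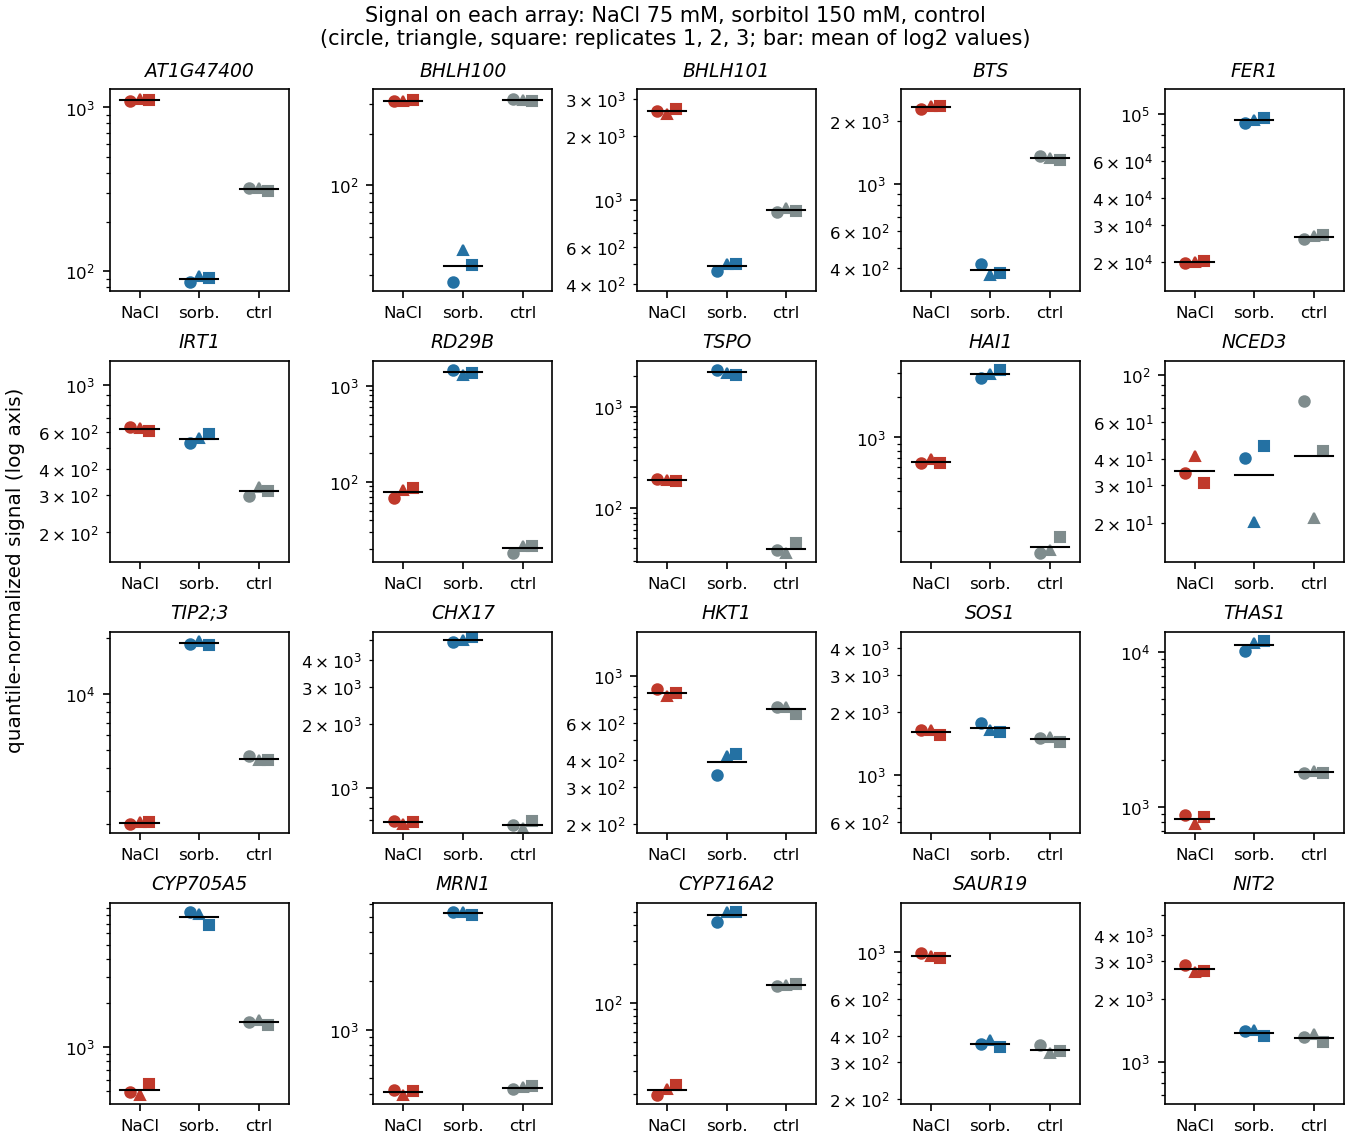
Signal on each array (log axis, quantile-normalized) of 20 genes, with NaCl 75 mM in red, sorbitol 150 mM in blue and control in grey. Circles, triangles and squares are replicates 1, 2 and 3 and bars are means of the log2 values. NaCl and sorbitol arrays are apart in all panels except IRT1, NCED3 and SOS1, which were not called; the IRT1 arrays do not overlap but differ by 0.16 log2.

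Iron genes formed the other large contrast, in which regulators and transporters were higher on NaCl and ferritins higher on sorbitol. Of 26 tested genes of iron acquisition and storage, 16 were higher on NaCl, 10 of them at least 2-fold, and 5 lower, 3 of them at least 2-fold, with a median of 0.78 (0.27 with normexp). These were 61.5% higher and 19.2% lower, against 24.1% and 23.9% of all genes. The list was chosen with earlier results of these data known. Several of its members act in roots, and 12 of 19 root markers were lower on NaCl with a median of -0.50, whose part in the iron differences was not tested. AT1G47400, a member of the list with no assigned function in the annotation used here, had the largest difference of the list, with 1089, 1133 and 1117 on NaCl, against 86.3, 93.9 and 91.0 on sorbitol and 322, 322 and 310 in control, so that control lay between (12.3-fold, 3.62 ± 0.06, adjusted p = 5.7e-21). Its neighbour AT1G47395 had 2631, 2699 and 2772 on NaCl, 317, 318 and 308 on sorbitol and 1005, 1054 and 1057 in control (3.1 ± 0.04). BHLH101, an iron deficiency transcription factor, had 2649, 2551 and 2699 on NaCl, 459, 500 and 496 on sorbitol and 880, 920 and 884 in control (2.44 ± 0.04). These 3 genes were above control on NaCl and below it on sorbitol, in every array.

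BHLH100, of the same family, did not differ detectably from control on NaCl but was far below it on sorbitol. Its signals were 310, 309 and 317 on NaCl, 27.4, 41.9 and 34.2 on sorbitol and 321, 317 and 313 in control (3.2 ± 0.11), the difference from control being -0.02 on NaCl and -3.22 on sorbitol. BTS, an E3 ligase that restrains the iron deficiency response, had 2274, 2357 and 2351 on NaCl, 420, 373 and 382 on sorbitol and 1364, 1333 and 1303 in control (2.57 ± 0.05), and its other probe gave a smaller difference of 0.8 in the same direction. The remaining members at least 2-fold higher on NaCl were NAS4, a nicotianamine synthase (1.83), BHLH38 (1.66), OPT3, a phloem iron transporter (1.26), and FRO3, a mitochondrial ferric reductase (1.22). The tenth by the fitted value, the root regulator MYB72, was not well above background on any sorbitol array and was at least 1.83-fold higher on NaCl. Higher on NaCl than on sorbitol did not always mean above control. BHLH38 was below control under both treatments (-1.16 on NaCl and -2.83 on sorbitol), as was BHLH39 (-0.94 and -1.90). Of the 26 list members, 15 were above and 9 below control on NaCl, and 9 above and 14 below on sorbitol. With normexp AT1G47400 was 2.24 and BHLH100 1.26.

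The ferritins went the other way. FER1 had 19788, 19979 and 20269 on NaCl, against 90631, 93850 and 96291 on sorbitol and 25560, 26564 and 26879 in control, so that the groups were all apart and sorbitol was the high one (4.68-fold lower on NaCl, -2.23 ± 0.04, adjusted p = 2.8e-20). FER3 had 6121, 5784 and 6052 on NaCl, 14844, 13451 and 13143 on sorbitol and 5856, 5959 and 5825 in control (-1.20 ± 0.05), and FER4 had 13532, 13770 and 14601 on NaCl, 27217, 27959 and 27474 on sorbitol and 18946, 18885 and 19077 in control (-0.98 ± 0.03). The uptake machinery itself showed little of this contrast. IRT1 had 634, 627 and 604 on NaCl, 530, 558 and 585 on sorbitol and 298, 328 and 314 in control, higher than control under both treatments and not called between them (0.16 ± 0.08, adjusted p = 0.082). FIT was likewise not called (-0.03 ± 0.04) and FRO2 was 0.27 ± 0.03 higher, whereas IRT2, a transporter of internal membranes, was lower on NaCl (287, 269 and 256, against 615, 663 and 630 on sorbitol, -1.23 ± 0.07).

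Some genes that neighbour each other on a chromosome were lower on NaCl together, among them triterpene genes on chromosome 5. Arabidopsis makes several triterpenes in roots from genes that sit side by side, among them the thalianol cluster (THAS1, thalianol synthase, with the cytochromes P450 CYP708A2, thalianol hydroxylase, and CYP705A5, thalian-diol desaturase) and the marneral cluster (MRN1, marneral synthase, with CYP71A16, marneral oxidase). These genes were chosen after their values were seen, by listing runs of 3 or more neighbouring genes, in the gene order of TAIR10.1, that were at least 2-fold apart in the same direction with a gap of at most 1 gene. There were 11 such runs lower on NaCl, holding 38 genes, and 2 higher, holding 8 genes, and 4 of the 38 were not well above background on any NaCl array. Of the 11 runs, 3 held triterpene genes, and whether such genes were more frequent among runs than elsewhere was not tested. The others included AT1G26380 to AT1G26420, whose 4 called genes differed by -1.77 to -2.43, and AT4G22214 to AT4G22230, whose 3 differed by -1.68 to -3.71.

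In the thalianol run, THAS1 had 876, 772 and 857 on NaCl, against 10214, 11463 and 11886 on sorbitol and 1650, 1708 and 1656 in control. Control lay between the treatments, and THAS1 was 13.4-fold lower on NaCl than on sorbitol (-3.74 ± 0.06, adjusted p = 2.4e-21). CYP705A5 had 491, 472 and 561 on NaCl, 8414, 8100 and 6787 on sorbitol and 1496, 1528 and 1411 in control (-3.93 ± 0.09), and its 3 probes agreed. The adjacent AT5G47980 had 600, 582 and 560 on NaCl, 3799, 4184 and 4121 on sorbitol and 2231, 2206 and 2131 in control (-2.80 ± 0.04). CYP708A2 was not well above background on any NaCl array (10.2, 9.83 and 10.1, against 130, 135 and 123 on sorbitol), so it was at least 10.0-fold lower on NaCl, the bound being set by the dimmest spots above background. The genes on either side of the run did not share the difference: AT5G47970 was -0.0015 and AT5G48020 -0.14, and neither was called. Further out, AT5G47950, which the run did not include, averaged 1019 on NaCl, 2554 on sorbitol and 1998 in control.

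The marneral run behaved alike, except that its genes were close to control on NaCl. MRN1 had 422, 394 and 419 on NaCl, 5335, 5367 and 5118 on sorbitol and 427, 439 and 446 in control (-3.68 ± 0.04, adjusted p = 2.1e-24), and CYP71A16 had 881, 883 and 909 on NaCl, 3690, 4071 and 4015 on sorbitol and 1001, 976 and 993 in control (-2.14 ± 0.04). CYP705A12, which completes the run, had 2264, 2377 and 2346 on NaCl, 6783, 6645 and 7327 on sorbitol and 2286, 2319 and 2343 in control (-1.57 ± 0.04). For these genes NaCl differed from control by at most 0.15 log2, and the sorbitol arrays stood alone.

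Another triterpene run held PEN3, a putative pentacyclic triterpene synthase, CYP716A2, a cytochrome P450, and AT5G36130. CYP716A2 had 19.7, 21.8 and 23.5 on NaCl, 420, 500 and 504 on sorbitol and 134, 138 and 140 in control (-4.45 ± 0.12, and -1.72 with normexp), AT5G36130 had 32.4, 41.4 and 36.3 on NaCl, 924, 1015 and 1123 on sorbitol and 252, 254 and 246 in control (-4.80 ± 0.09), and PEN3 had 60.9, 44 and 25.8 on NaCl, 280, 282 and 250 on sorbitol and 53.6, 93.8 and 102 in control (-2.72 ± 0.48). SQP2, a squalene monooxygenase that lies elsewhere on the chromosome, had 40.1, 74.8 and 50.7 on NaCl, 849, 1004 and 1002 on sorbitol and 157, 131 and 162 in control (-4.15 ± 0.16). A run of 6 genes between AT5G37940 and AT5G38020 differed by -1.50 to -3.97, and AT5G38020 had 1491, 1396 and 1378 on NaCl, 12233, 12054 and 12142 on sorbitol and 2114, 2004 and 1952 in control. Root markers moved the same way by less, with a median of -0.50 between the treatments, and their part in these differences was not tested.

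**Figure D3:**
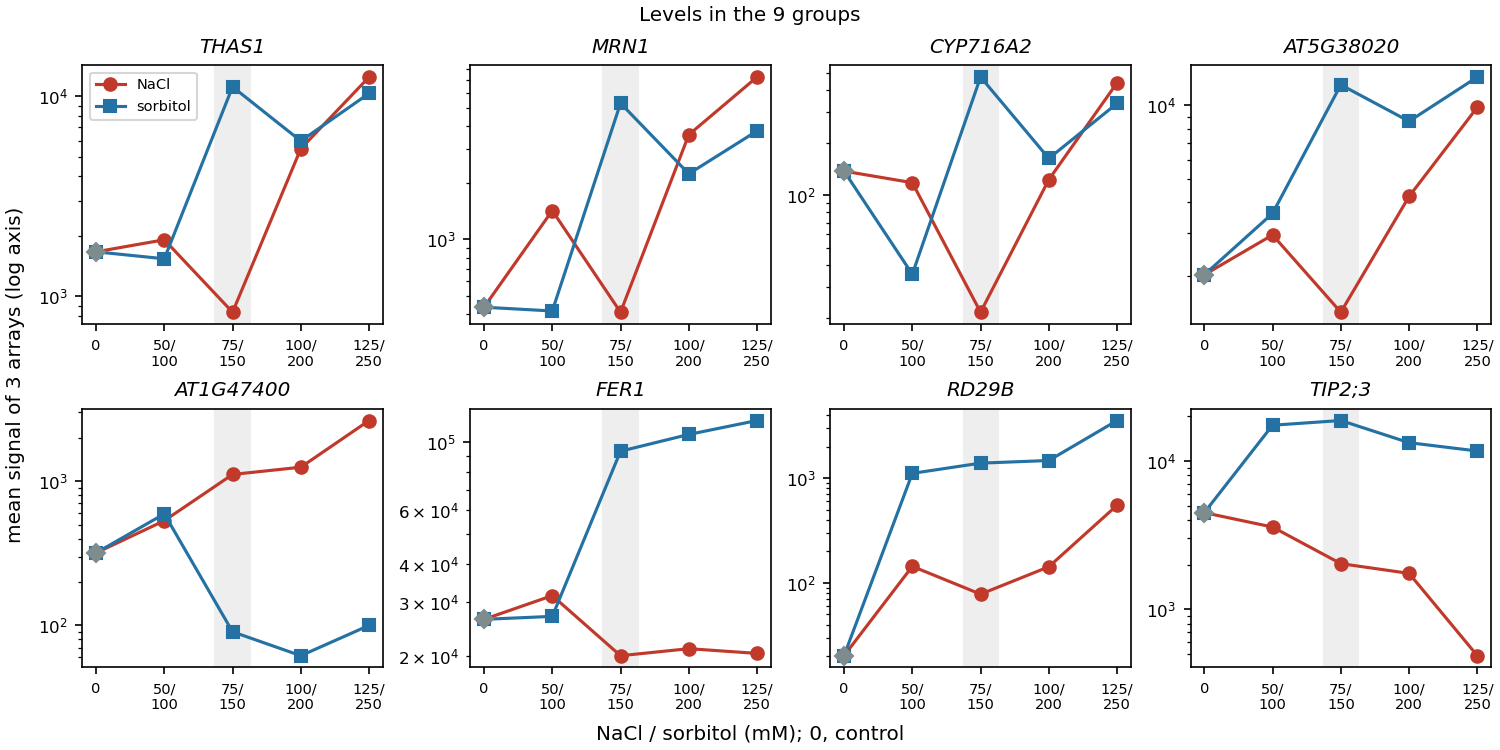
Mean signal of 3 arrays (log axis) in the 9 groups for 8 genes, with NaCl in red and sorbitol in blue joined from the control at 0 and the compared doses shaded. THAS1, MRN1, CYP716A2 and AT5G38020 are low at NaCl 75 mM and high at sorbitol 150 mM but near each other at the highest dose, whereas AT1G47400, FER1, RD29B and TIP2;3 stay apart there. Error bars are left out, since replicate arrays mostly lie within the symbols.

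The contrast of the triterpene genes, which were picked for their difference at this pair, was largest at this pair of doses. THAS1 averaged 1920, 834, 5479 and 12498 at NaCl 50, 75, 100 and 125 mM, and 1543, 11164, 5982 and 10355 at sorbitol 100, 150, 200 and 250 mM, with 1671 in control. Its differences between the iso-osmolar pairs were thus 0.32 at NaCl 50 mM, -3.74 at 75 mM, -0.13 at 100 mM and 0.27 at 125 mM, and the pair at 75 mM differed from each of the others by 3.62 log2 or more. MRN1 differed by 1.77, -3.68, 0.69 and 0.95 over the same doses and CYP716A2 by 1.73, -4.45, -0.40 and 0.39. Smaller differences of the same sign were called at other pairs for some of these genes, namely -0.68 at 100 mM and -1.11 at 125 mM for SQP2, and -0.51 for AT5G47980, -0.64 for CYP705A5 and -0.37 for AT5G36130 at 100 mM, while SQP2 was 0.73 higher at 50 mM. The 75 mM NaCl mean was the lowest of all 9 group means for THAS1, CYP705A5, AT5G47980, MRN1, CYP71A16, AT5G36130, CYP716A2 and SQP2. Of the 589 genes at least 2-fold lower on NaCl, 432 were well above background on 1 or more arrays of each of the 9 groups. Among these the 75 mM NaCl mean was the lowest of 9 for 135, the 150 mM sorbitol mean was the highest for 166, and both held for 67. All these genes were picked for being lower on NaCl 75 mM than on sorbitol 150 mM, which itself favours such ranks. The share over all genes is not given here.

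Several aquaporins, which let water across membranes, were lower on NaCl. Of 22 tested, 9 were lower (40.9%, against 23.9% of all genes) and 2 higher (9.09%, against 24.1%), with a median of -0.18. TIP2;3, a tonoplast aquaporin of roots, had 2000, 2038 and 2053 on NaCl, against 18525, 19248 and 18272 on sorbitol and 4616, 4416 and 4401 in control (9.20-fold lower, -3.2 ± 0.04, adjusted p = 1.0e-22). It was below control on NaCl and above it on sorbitol in every array. PIP2;4, a plasma membrane aquaporin, had 4887, 4835 and 5130 on NaCl, 13489, 12675 and 14069 on sorbitol and 9402, 9462 and 9309 in control (-1.44 ± 0.04), and TIP2;2 had 33741, 36412 and 34338 on NaCl, 80697, 78987 and 84371 on sorbitol and 45620, 46979 and 47074 in control (-1.22 ± 0.04), in the same order. PIP2;8 (0.38) and PIP2;7 (0.20) were the members higher on NaCl. These differences stand beside the root markers, of which 12 of 19 were lower with a median of -0.50, and their part was not tested.

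Few genes of sodium and potassium transport differed by much. Of 26 tested, 8 were lower (30.8%, against 23.9% of all genes) and 4 higher (15.4%, against 24.1%), with a median of -0.03 near that of all genes. SOS1, the plasma membrane sodium exporter, had 1642, 1642 and 1552 on NaCl, 1770, 1640 and 1603 on sorbitol and 1494, 1513 and 1441 in control and was not called (-0.05 ± 0.06), nor was the vacuolar exchanger NHX3 (194, 214 and 203 on NaCl, 165, 181 and 210 on sorbitol, 0.14 ± 0.09). HAK5, the high-affinity potassium transporter, was above control to a like extent under both treatments, by 4.12 on NaCl and 4.02 on sorbitol, with 1866, 1796 and 1758 on NaCl, 1559, 1767 and 1735 on sorbitol and 108, 99.2 and 105 in control (0.10 ± 0.05, adjusted p = 0.068). HKT1, which retrieves sodium from the xylem, was the member most above sorbitol, with 867, 810 and 836 on NaCl, 339, 421 and 427 on sorbitol and 717, 711 and 666 in control (1.09 ± 0.06). CHX17, a cation exchanger of endosomes, stood at its control level on NaCl (695, 668 and 687, against 662, 646 and 697 in control) and at 4878, 5008 and 5155 on sorbitol (-2.87 ± 0.04, adjusted p = 1.0e-22). CLC-C, a vacuolar chloride transporter, was higher on NaCl (0.55 ± 0.06), being below control on sorbitol (-0.60) and -0.05 from it on NaCl. CAX3, a calcium exchanger, was lower (-0.90 ± 0.05).

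Sulphur limitation genes were higher on NaCl almost throughout. Of 13, 11 were higher and 0 lower, with a median of 0.58, the exceptions being BGLU28 (-0.18) and SULTR1;2 (-0.01), which were not called. LSU3, of a small family induced by sulphur shortage, had 102, 97.4 and 108 on NaCl, 29.9, 34.5 and 25.7 on sorbitol and 29.9, 39.0 and 51.0 in control (1.78 ± 0.24), and LSU1 had 3416, 3225 and 3179 on NaCl, 1732, 1872 and 1921 on sorbitol and 977, 885 and 876 in control (0.83 ± 0.05), where the second probe of LSU1 gave 0.2. GGCT2;1, which recycles glutathione, had 1478, 1460 and 1399 on NaCl, 609, 718 and 736 on sorbitol and 1040, 985 and 1011 in control (1.08 ± 0.07). The sulphate reductases APR1, APR2 and APR3 were higher by 0.37, 0.58 and 0.53.

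Growth genes of the SAUR family were more often higher than lower on NaCl, while auxin metabolism was mixed. Of 65 SAUR genes (small auxin up RNAs, which promote cell expansion), 37 were higher, 9 at least 2-fold, and 12 lower, 5 at least 2-fold, with a median of 0.40. These were 56.9% higher and 18.5% lower, against 24.1% and 23.9% of all genes. The neighbours SAUR19, SAUR20 and AT5G18030 on chromosome 5 formed 1 of the 2 runs that were higher. SAUR19 had 981, 956 and 934 on NaCl, 365, 382 and 353 on sorbitol and 360, 330 and 340 in control (1.38 ± 0.04), so that sorbitol was near control. Close relatives of SAUR19 are nearly identical in sequence, so these probes may not be specific to 1 gene. EXPA5, an expansin that loosens cell walls, had 4862, 4826 and 4745 on NaCl, 1482, 1519 and 1570 on sorbitol and 3068, 3004 and 2848 in control (1.66 ± 0.04), and of 22 expansins 9 were higher and 4 lower. EXPA2 was among the lower, with 22.2, 31.6 and 28.2 on NaCl, 285, 331 and 333 on sorbitol and 4.3, 4.27 and 4.14 in control (-3.54 ± 0.16). Xyloglucan endotransglucosylases (8 higher, 9 lower of 27) and Aux/IAA genes (7 higher, 6 lower of 21) had medians of -0.03 and -0.05.

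Of 29 genes of auxin synthesis, conjugation and transport, 6 were higher and 11 lower, with a median of -0.08. These were 20.7% higher and 37.9% lower, against 24.1% and 23.9% of all genes. NIT2, a nitrilase that can make indole-3-acetic acid, had 2893, 2688 and 2700 on NaCl, 1405, 1414 and 1325 on sorbitol and 1321, 1361 and 1245 in control (1.00 ± 0.04, adjusted p = 3.6e-14), its paralogue NIT1 had 36537, 34569 and 37348 on NaCl and 26125, 28122 and 25255 on sorbitol (0.45 ± 0.03), and the auxin importer AUX1 had 6446, 6609 and 6327 on NaCl, 3586, 3423 and 3147 on sorbitol and 7682, 8098 and 8442 in control (0.93 ± 0.06). NIT2 and NIT1 were above control on NaCl and near it on sorbitol, whereas AUX1 was below control under both, more so on sorbitol. CYP79B2 and CYP79B3, which convert tryptophan to indole-3-acetaldoxime, were lower (-0.86 ± 0.05 and -0.94 ± 0.06), as were the flavin monooxygenase gene YUC4 (-0.49 ± 0.08) and the aldehyde oxidase gene AAO1 (-0.24 ± 0.04), and the amidase gene AMI1 was 0.16 ± 0.04 higher. GH3.5, which conjugates auxin to amino acids, was called lower (2524, 2596 and 2654 on NaCl, 4819, 2957 and 3134 on sorbitol, -0.45 ± 0.12), but rested on sorbitol replicate 1, without which it was -0.23 and not called. The same held for PIN7, an auxin exporter (-0.51, and -0.30 without that array), and for SAND, the reference gene of the study's quantitative PCR (-0.16, and -0.10 without it).

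**Figure D4:**
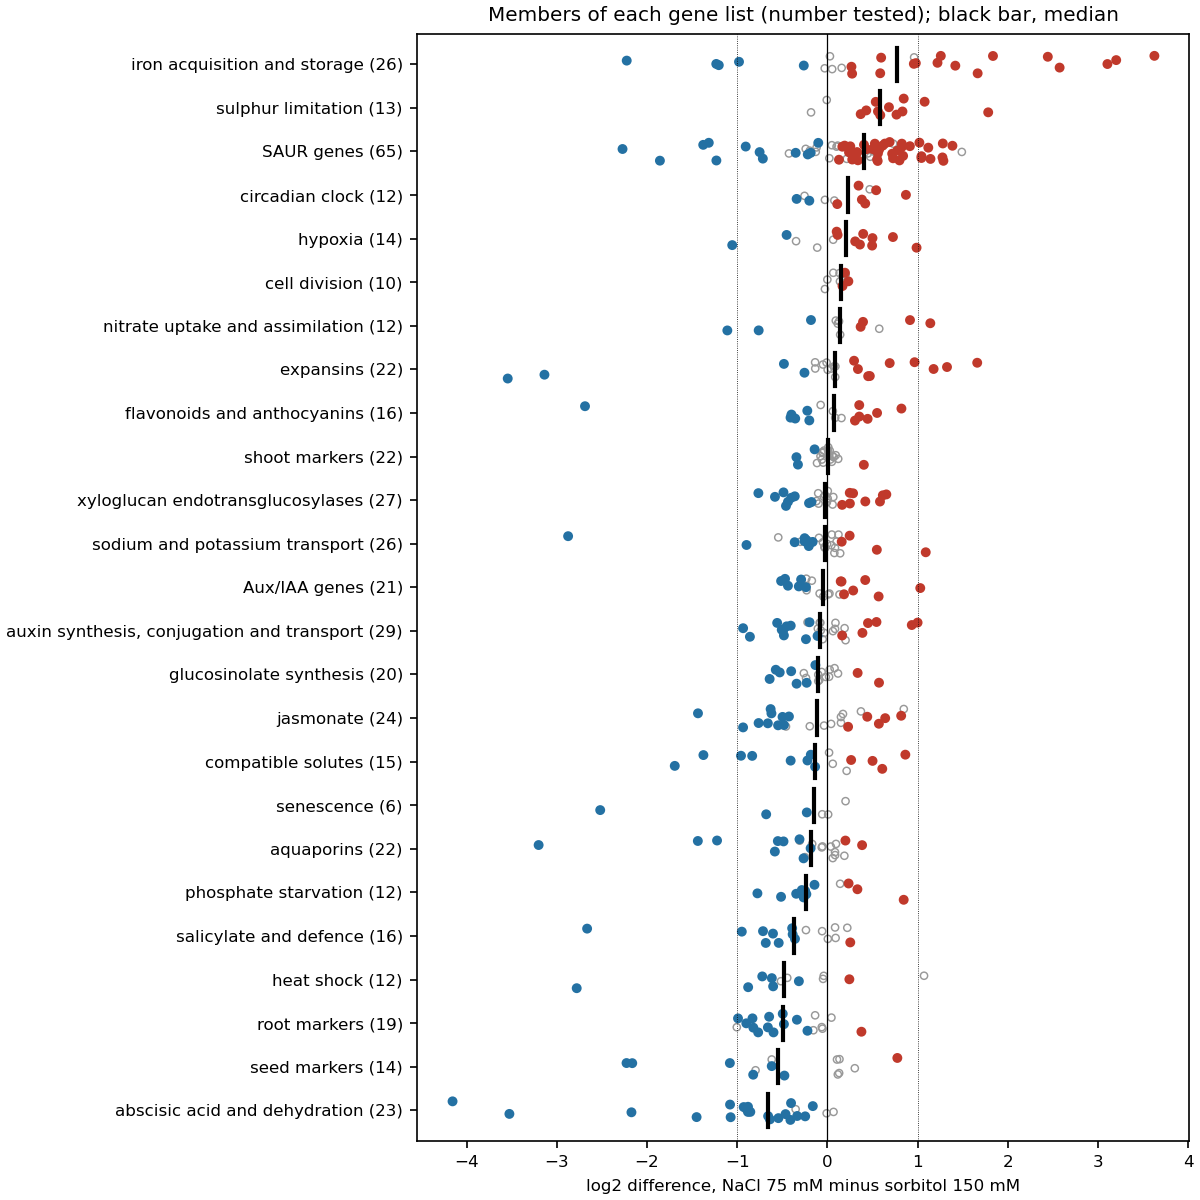
Log2 difference NaCl 75 mM minus sorbitol 150 mM of every tested member of each gene list, with the number tested in brackets. Filled points are past an adjusted p of 0.01 (red, higher on NaCl; blue, lower on NaCl), open grey points are not, black bars are medians and dotted lines mark 2-fold. The medians run from -0.66 for abscisic acid and dehydration to 0.78 for iron.

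Compatible solutes were mixed, with 4 of 15 higher (26.7%, against 24.1% of all genes) and 8 lower (53.3%, against 23.9%). GolS4 and GolS2, galactinol synthases of the raffinose pathway, were lower on NaCl and above control under both treatments. GolS4 had 381, 396 and 400 on NaCl, 1212, 1221 and 1380 on sorbitol and 182, 149 and 169 in control (-1.69 ± 0.06), and GolS2 had 472, 458 and 489 on NaCl, 1248, 1227 and 1204 on sorbitol and 133, 145 and 143 in control (-1.38 ± 0.04). ProDH1, which breaks down proline, had 17916, 17444 and 18075 on NaCl, 33550, 33845 and 36518 on sorbitol and 49602, 52384 and 50304 in control (-0.96 ± 0.04). P5CS1, which makes proline, was lower by its brighter probe (-0.83 ± 0.04) but 0.3 higher by the other, so its direction is uncertain. GolS3 (0.61) and STS (0.86) were higher.

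Salicylate and defence genes were more often lower than higher on NaCl. Of 16 salicylate and defence genes, 9 were lower on NaCl (56.25%, against 23.9% of all genes) and 1 higher (6.25%, against 24.1%), with a median of -0.37. PR5, a thaumatin-like pathogenesis protein, had 1416, 1409 and 1405 on NaCl, 8654, 8948 and 9224 on sorbitol and 3340, 3230 and 3210 in control (-2.66 ± 0.03), while PR2, a glucanase, was above control under both treatments (2464, 2276 and 2370 on NaCl, 4796, 4562 and 4379 on sorbitol, 335, 341 and 325 in control, -0.95 ± 0.05). ICS1, which makes salicylate, was not called (-0.24). Of 6 senescence genes 3 were lower and 0 higher, with a median of -0.14, and 1 was past 2-fold. That gene, SEN1, which darkness induces, had 2094, 2023 and 2093 on NaCl, 11799, 11848 and 11944 on sorbitol and 14977, 14816 and 14499 in control (-2.52 ± 0.02), so that sorbitol was nearer to control than NaCl was. Of 24 jasmonate genes 10 were lower (41.7%, against 23.9% of all genes) and 5 higher (20.8%, against 24.1%). The regulators MYC2 (-0.62) and JAZ1 (-0.55) and the synthesis gene AOC1 (-1.44) were lower, and the storage proteins VSP1 (0.64) and VSP2 (0.82) and the lipoxygenase LOX2 (0.44) higher. VSP1 had 4 probes that disagreed, from -0.9 to 0.6.

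The other lists held smaller differences, to be read against the 24.1% of all genes called higher and the 23.9% called lower. Heat shock genes had 6 of 12 lower and 1 higher with a median of -0.48, phosphate starvation genes 8 of 12 lower and 3 higher, glucosinolate synthesis genes 7 of 20 lower and 2 higher, and nitrate genes 3 of 12 lower and 4 higher. Hypoxia genes had 9 of 14 higher and 2 lower, the higher ones led by the haemoglobin HB1 (41929, 42171 and 38667 on NaCl, against 20584, 21318 and 20013 on sorbitol and 20468, 20734 and 20472 in control, 0.99 ± 0.03), clock genes 6 of 12 higher and 2 lower, led by PRR5 (0.87), and cell division genes 3 of 10 higher and 0 lower, none by over 0.23. In the hypoxia list 1 member was at least 2-fold lower and 0 at least 2-fold higher. HRA1 of that list averaged 3384 on NaCl, 7035 on sorbitol and 3777 in control. Flavonoid genes had 6 of 16 higher and 6 lower, and late genes such as DFR (0.35) and LDOX (0.55) were far above control under both treatments, by 3.05 and 2.78 on NaCl and 2.70 and 2.23 on sorbitol. Clock values depend on the hour of harvest, which the sources used here do not give.

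Beyond the lists, several named genes were strongly higher on NaCl. ChlAKR, a chloroplast aldo-keto reductase that detoxifies reactive carbonyls, had 936, 901 and 896 on NaCl, 82.7, 92.2 and 96.6 on sorbitol and 652, 659 and 660 in control (10.1-fold, 3.33 ± 0.06, adjusted p = 4.8e-20). NRT2.6, of the nitrate transporter family, had 2470, 2423 and 2434 on NaCl, 319, 387 and 337 on sorbitol and 4047, 3850 and 3975 in control (2.82 ± 0.07), and GLR2.3, a glutamate receptor-like channel, had 1119, 1073 and 1115 on NaCl, 217, 199 and 190 on sorbitol and 929, 895 and 892 in control (2.45 ± 0.11). For these genes NaCl was nearer to control than sorbitol, which was the lowest group. The F-box gene EBF1, which limits ethylene signalling, was higher by 2.11 on its brighter probe and -0.1 on the other, so it is uncertain. THI2.1, a thionin, was not well above background on sorbitol (24.6, 31.0 and 29.7 on NaCl, 4.38, 3.80 and 3.83 on sorbitol) and was at least 2.6-fold higher on NaCl by its brighter probe, its other probe differing by 0.0. MYB64, a transcription factor, was not well above background on any sorbitol array and was at least 4.6-fold higher on NaCl. PIRL8, a leucine-rich repeat protein (2.3), AACT1, an acyltransferase (2.34), MLO8 (2.03) and 4CL8 (2.03) were also higher. Of these only AACT1 went the other way at the higher doses. It averaged 24.8 on NaCl 100 mM against 216 on sorbitol 200 mM, and 16.4 on NaCl 125 mM against 315 on sorbitol 250 mM. The second higher run, AT4G15660 to AT4G15700, held 5 genes with differences of 1.05 to 1.82, AT4G15700 having 1774, 1723 and 1769 on NaCl, 454, 534 and 505 on sorbitol and 1464, 1418 and 1419 in control.

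Among genes strongly lower on NaCl outside the lists and runs, AT4G01390 had 37.2, 52.5 and 46.4 on NaCl, 2277, 1839 and 1990 on sorbitol and 108, 123 and 139 in control (-5.50 ± 0.15), and it was lower at the other pairs too (-3.57 and -6.32 at NaCl 50 and 100 mM, and not well above background on any NaCl 125 mM array). AT1G14960, described as a major latex protein-related gene, had 397, 373 and 384 on NaCl, 12652, 13242 and 12904 on sorbitol and 5545, 5472 and 5456 in control (33.6-fold, -5.07 ± 0.03, adjusted p = 3.3e-29). AT5G04120 had 500, 488 and 463 on NaCl, 14601, 15182 and 15855 on sorbitol and 1936, 1842 and 1873 in control (-4.97 ± 0.04). All 3 were below control on NaCl and above it on sorbitol. TPS-CIN, a cineole synthase, had 1133, 1124 and 1084 on NaCl, 10804, 11852 and 11901 on sorbitol and 6255, 6222 and 6287 in control (-3.37 ± 0.04), and CYP81D11, a jasmonate-induced cytochrome P450, had 20.3, 27.4 and 20.2 on NaCl, 479, 406 and 388 on sorbitol and 312, 320 and 307 in control (-4.24 ± 0.23). HSD1, a hydroxysteroid dehydrogenase, and UGT71B8, a glycosyltransferase, were not well above background on any NaCl array and were at least 5.9-fold and at least 5.8-fold lower on NaCl. LOG2, a cytokinin-activating enzyme of the LONELY GUY family, had 10.5, 11.8 and 13.3 on NaCl, 144, 144 and 167 on sorbitol and 43.1, 47.0 and 54.0 in control (-3.68 ± 0.17). It was well above background on only 1 of the 3 NaCl arrays, so the size of its difference is uncertain. For TPS-CIN, CYP81D11 and LOG2, sorbitol was nearer to control than NaCl was.

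Whether the contrast recurred at other doses was examined in the 3 other iso-osmolar pairs, which use other arrays. The arrays of the pair at 100 mM against 200 mM lay on the same slides as those of this pair, replicate for replicate. Recurrence there is therefore not independent of slide, whose part was not tested. Of the 423 genes at least 2-fold higher on NaCl, 139 (32.9%) were called higher at NaCl 50 mM against sorbitol 100 mM, where 31.8% of all genes were, and 174 (41.1%) were called lower, where 24.2% of all genes were. At 100 mM against 200 mM 348 (82.3%) were called higher, where 26.1% of all genes were, and at 125 mM against 250 mM 386 (91.3%), where 26.7% were. Of the 589 genes at least 2-fold lower, 353 (59.9%), 462 (78.4%) and 443 (75.2%) were called lower in those pairs, where 24.2%, 30.7% and 41.4% of all genes were. The same direction in all 4 pairs held for 120 (28.4%) of the higher and 261 (44.3%) of the lower genes. The 423 genes thus resembled the higher doses but at the lowest pair were called higher about as often as all genes.

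The gene groups differed in this respect. The 19 lower dehydration genes stood beside 16, 14 and 12 of the 23 at the pairs with NaCl 50, 100 and 125 mM, with list medians of -0.47, -0.30 and -0.17, and RD29B differed by -2.95, -3.37 and -2.69. The iron list had medians of -0.10, 1.44 and 1.32, with AT1G47400 at -0.16, 4.34 and 4.72 and FER1 at 0.23, -2.33 and -2.53. At the lowest pair the median near 0 covered calls in both directions, with 9 of the 26 genes higher on NaCl and 10 lower. BHLH100 (0.90) and BHLH101 (0.69) were called higher there. The uptake genes IRT1 and FRO2 were lower on NaCl, averaging 782 and 1343 on NaCl 50 mM against 2540 and 3544 on sorbitol 100 mM. The sulphur list had 0.98, 0.84 and 0.68, and SAUR19 1.87, 2.1 and 1.88, at these pairs, and both were positive at each. TIP2;3 differed by -2.28, -2.92 and -4.58. The pair at 75 mM was further apart than all 3 other pairs, by tests of the difference, for 22 (5.2%) of the higher and 191 (32.4%) of the lower genes, the difference from each pair alone being called for 41.9%, 38.2% and 48.8% of all genes. Both sets were picked for their difference at 75 mM, which itself favours such counts, and the joint share over all genes is not given here.

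**Figure D5:**
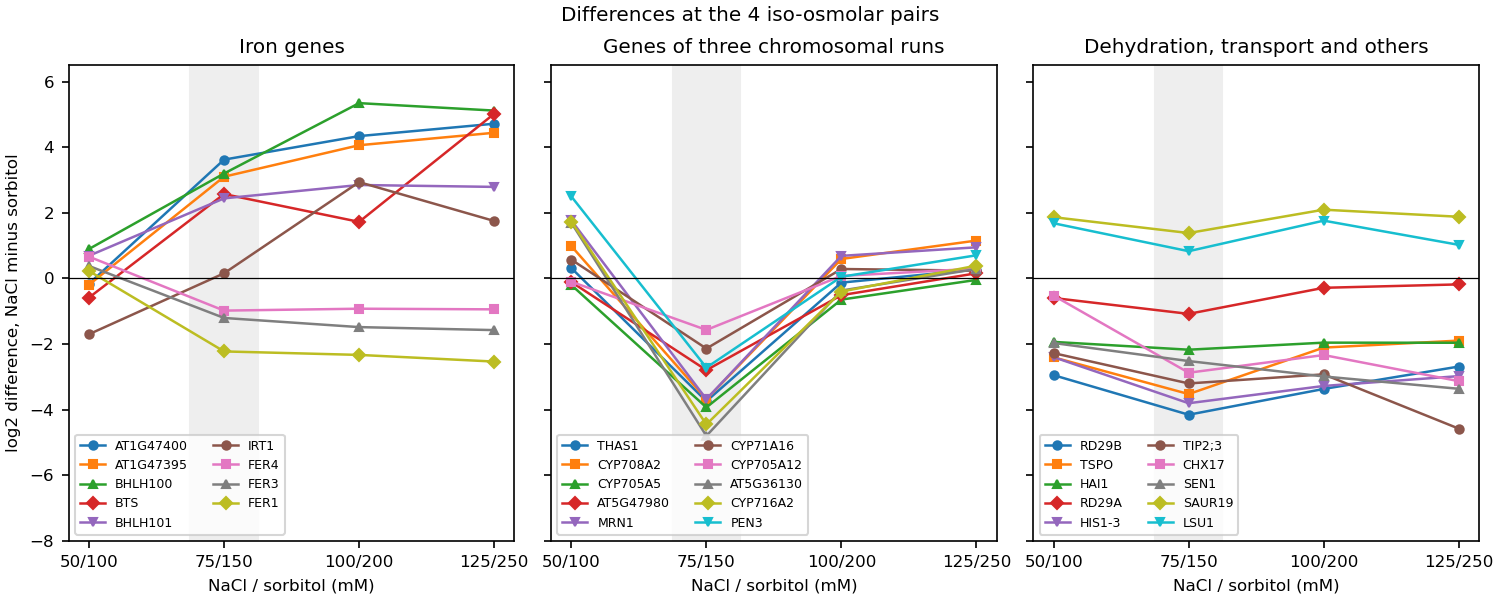
Log2 difference NaCl minus sorbitol at the 4 iso-osmolar pairs (x axis, NaCl and sorbitol in mM) for genes of iron, of 3 chromosomal runs and of other groups, with the compared pair shaded. AT1G47400 is near 0 at the lowest pair (-0.16) and far above 0 at the others, THAS1 and MRN1 are far below 0 at 75 mM against 150 mM only, and RD29B and TIP2;3 are below 0 throughout.

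Without sorbitol replicate 1, 9809 genes were called, of which 9095 were called with all arrays in the same direction, 1217 calls were lost, 714 gained and 0 reversed. Of the 1012 genes at least 2-fold apart, 979 (96.7%) were still called and 898 still at least 2-fold (344 higher and 554 lower). The difference moved by over 0.5 log2 for 330 genes, upwards for 291 of them. The 3 genes that moved most were AT2G03936 (1.14, and 2.90 without the array), AT2G29780 (0.09 and 1.60) and AOX1B, an alternative oxidase (-1.24 and 0.25), and none of them was called either way. AOX1B had 7.16, 5.13 and 11.9 on NaCl and 140, 7.45 and 5.48 on sorbitol, so that 1 array made its mean, and it was not well above background on any NaCl array. RD29B (-4.11), AT1G47400 (3.59), FER1 (-2.25), THAS1 (-3.81), MRN1 (-3.67), TIP2;3 (-3.21), CHX17 (-2.89) and NIT2 (1.01) kept their calls.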

How the data were processed

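Total RNA of whole seedlings was hybridised in 1 colour to 27 Agilent arrays (9 groups of 3), of which the 3 NaCl 75 mM and 3 sorbitol 150 mM arrays were compared. Per the file headers, the deposited spot intensities are processed signals of Agilent Feature Extraction 10.7, background-subtracted by the scanner software. The authors also deposited a table of values whose scale they did not state; it equals the quantile-normalized processed signal within rounding, with a median of 778 in each column, so it is on a linear intensity scale. Its 27 columns were mapped to the arrays by their labels. Processed signals of 43803 non-control spots were quantile-normalized over all arrays here, log2-transformed and averaged over spots of a probe, after 530 outlier values (0.0448%) had been masked; 0 values were saturated. Probes were named through RefSeq transcript accessions (TAIR10.1), which matched 34369 spots to 25383 genes, 6919 of them with over 1 probe, and the brightest probe stood for a gene. Testing was limited to the 21509 genes with a probe that 1 or more groups showed well above background on each of their 3 arrays. A mean for each of the 9 groups was fitted with limma 3.58.1 (R 4.3.3) over all 27 arrays, and 2-sided moderated tests were adjusted by Benjamini-Hochberg over all genes tested, with calls past 0.01. For a gene not well above background on any array of 1 group, the fold was bounded by the lowest signal well above background. Spots well above background made up 77.0 to 79.5% on NaCl 75 mM, 78.4 to 80.8% on sorbitol 150 mM and 70.1 to 75.9% in control. The number of arrays limits the precision.

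Named genes were the 15 largest differences in each direction among named genes that were called, not overlapping and called without sorbitol replicate 1; up to 4 members of each list in each direction and its defining members; up to 5 genes in each direction on opposite sides of control; 13 genes fixed by name; and the 3 that moved most without sorbitol replicate 1. The gene lists and the comparison were chosen with earlier results of these data known. Genes of chromosomal runs were chosen after their values were seen. Alternatives were the scale (75th percentile), normexp background correction with an offset of 50 on median spot and background signals, no filter, the mean of probes, the deposited table, only the 6 arrays, leaving out each replicate, a replicate block, slide as a random block, array weights, an exact Mann-Whitney test and a threshold of 0.05. The procedure was tested on simulated data, drawn independently for each array. The simulation held no slide effect, so it cannot show what slides do to the calls. No sequence of the genes was analysed here.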

Additional observations from a re-analysis of the deposited data

Results flagged for a closer look

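The difference between NaCl 75 mM and sorbitol 150 mM was itself not the same at each iso-osmolar pair of doses. Tested as a difference of differences with limma (adjusted p under 0.01), 9019 genes differed from the pair of NaCl 50 mM and sorbitol 100 mM, 8216 from the pair at 100 mM and 200 mM, and 10500 from the pair at 125 mM and 250 mM. Of the 234 named genes, chosen largely for their size at this pair, 199 (85.0%) were called here and differed from at least 1 other pair, as 88.1% of the 1012 genes at least 2-fold apart and 40.0% of all genes did. Further apart than all 3 other pairs by at least 2-fold were 26 (11.1%) of the named genes, 88 (8.70%) of the 1012 and 97 (0.451%) of all genes, of which 89 were more negative and 8 more positive. Of the 26, which were all more negative at 75 mM, UGT71B8 and CYP708A2 were not well above background in some of the groups and have no value, and for the other 24 the smallest of the 3 differences is given here.

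For the triterpene and neighbouring runs it was -4.43 for AT5G36130, -4.05 for CYP716A2, -2.77 for PEN3, -4.37 for MRN1, -2.37 for CYP71A16, -1.47 for CYP705A12, -3.62 for THAS1, -3.29 for CYP705A5 and -2.29 for AT5G47980. In the run AT5G37940 to AT5G38020 it was -2.20 for AT5G37940, -2.76 for AT5G37990, -2.46 for AT5G38000 and -2.07 for AT5G38020. Among other enzymes it was -3.04 for SQP2, -1.92 for TPS-CIN, -1.03 for CYP81D11, -2.80 for LOG2 and -1.26 for GolS4. The value of LOG2 is uncertain in size, since only 1 of its 3 NaCl 75 mM arrays was well above background. For the remaining genes the smallest difference was as follows. It was -1.12 for TSPO and -1.85 for EXPA16, whose probes differ. It was -4.39 for AT5G04120, -3.93 for AT2G16005, -3.04 for AT1G14960 and -1.97 for AT3G05770. The pair at 100 mM and 200 mM was hybridised on the same slides as the pair at 75 mM and 150 mM, replicate for replicate, and the other 2 pairs partly on others, whose part in the differences from those pairs was not tested.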

How the results depend on the processing

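With only the 6 arrays of the pair, 6353 genes were called, 3130 higher and 3223 lower. Normexp left 131 genes at least 2-fold higher and 228 lower. An exact Mann-Whitney test called 0 genes (0 at an unadjusted p under 0.05), since its smallest p is 0.1, while limma called 10312. The dehydration median (-0.66) was -0.57 with normexp and -0.86 with the mean of probes, the iron median (0.78) was 0.85 with the 75th percentile and 0.27 with normexp, and the sulphur median (0.58) was 0.51 with normexp. The medians of 3 lists near 0 changed sign: jasmonate (-0.12) was 0.0097 without sorbitol 150 mM replicate 2 and -0.23 without replicate 1, Aux/IAA 0.017 with the mean of probes, and xyloglucan endotransglucosylases 0.0051 with the 75th percentile. VSP1 was -0.097 (adjusted p = 0.43, limma) with the mean of probes, which disagree. The cause of these changes was not tested. Leaving out each of the 6 replicates gave 9209 to 9880 calls, 4633 to 5118 higher and 4576 to 5110 lower, 371 to 465 at least 2-fold higher and 570 to 618 lower, 8399 to 10110 for NaCl 75 mM against control, 10184 to 10593 for sorbitol 150 mM against control, 8272 to 10008, 7480 to 8382 and 9814 to 10364 for the differences from the other pairs, and medians of -0.72 to -0.60 for dehydration, 0.66 to 0.83 for iron and 0.56 to 0.62 for sulphur. Replicate numbers did not pair the samples (correlations of deviations 0.033, 0.063 and -0.051), and the replicate block gave 10775 calls. Arrays on the same slide had a consensus correlation of 0.52, which the main fit left out, and slide as a random block gave 9295 calls. Replicates 2 and 3 of NaCl 75 mM shared a slide, as did those of sorbitol 150 mM. Of 3744 values of 234 named genes under 16 alternatives, 116 lost their call, 17 gained one and 1 changed sign. Leaving out genes not well above background hides differences among dim transcripts.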
